A study of Mus musculus with 2 samples.

Results

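The expression of 9 genes of transforming growth factor beta (TGF-beta) signalling was followed in single lung cells of mice given saline or bleomycin. They were chosen by symbol, as the rows named Tgfb1, Tgfb2, Tgfb3, Inhba, Ltbp1, Ltbp2, Tgfbr2, Tgfbr3 and Ctgf in both count matrices, and are 9 of 28692 genes listed there. Each symbol was found on 1 row. The saline group and the bleomycin group each held 1 library of tdtomato+ cells sorted live from lungs of Lepr-Cre;Rosa26-tdtomato mice aged 8-10 weeks. The genotype is shared by both groups, so a driver at Lepr, the leptin receptor gene, and the reporter that it switches on for good are present in the controls too. Bleomycin breaks DNA and is given to rodents as a model of lung fibrosis. Not given in the sources used here are the dose, the time of harvest and how many mice a library pools. With 1 library per group there was no test, and every interval below covers counting error only, at 95%.

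TGF-beta is secreted in a latent form, held in the matrix by a latent TGF-beta binding protein (LTBP) and released by integrins or proteases. The freed ligand binds a type II receptor, which recruits a type I receptor that phosphorylates SMAD2 and SMAD3, and these carry the signal to the nucleus with SMAD4. In the lung the pathway is known for driving fibroblasts to lay down collagen and to take on contractile genes. Activins, of which Inhba encodes a subunit, are related ligands that signal through the same SMADs by receptors of their own.

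The members are spread over 8 chromosomes of the mouse build mm10 (GRCm38), and all are annotated as protein coding in GENCODE vM21. The ligand genes are Tgfb1 at chr7:25687002-25705077 on the + strand, Tgfb2 at chr1:186622792-186705989 on the - strand, Tgfb3 at chr12:86056745-86079041 on the - strand and Inhba at chr13:16011851-16031621 on the + strand. The LTBP genes are Ltbp1 at chr17:75005568-75392512 on the + strand and Ltbp2 at chr12:84783212-84876532 on the - strand. The receptors are Tgfbr2 at chr9:116084293-116175360 and Tgfbr3 at chr5:107106570-107289629, both on the - strand. The target gene Ctgf, named Ccn2 in the annotation, lies at chr10:24595442-24598683 on the + strand. Ltbp2 shares exonic sequence with the antisense gene D030025P21Rik, which had 158 unique molecular identifiers (UMIs) over both libraries against 11798 for Ltbp2.

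Promoter windows were matched by symbol in RefSeq (GRCm38.p6) for 6 of the 9 members, in 7 windows. Shown here are the 250 bases before the RefSeq start of the 2 members with a window that were at least 2-fold higher in fibroblasts of the bleomycin library, Inhba (chr13:16011601-16011850, + strand) and Ltbp2 (chr12:84876492-84876741, - strand), read 5′ to 3′. Capitals mark the TATA box letters TATAAA in Inhba and the SMAD box letters CAGAC, or the same letters on the other strand, in Ltbp2.
Inhba: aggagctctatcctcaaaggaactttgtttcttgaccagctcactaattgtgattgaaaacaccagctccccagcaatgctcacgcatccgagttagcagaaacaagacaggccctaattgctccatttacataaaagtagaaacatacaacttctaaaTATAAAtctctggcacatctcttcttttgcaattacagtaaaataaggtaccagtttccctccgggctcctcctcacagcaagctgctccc
Ltbp2: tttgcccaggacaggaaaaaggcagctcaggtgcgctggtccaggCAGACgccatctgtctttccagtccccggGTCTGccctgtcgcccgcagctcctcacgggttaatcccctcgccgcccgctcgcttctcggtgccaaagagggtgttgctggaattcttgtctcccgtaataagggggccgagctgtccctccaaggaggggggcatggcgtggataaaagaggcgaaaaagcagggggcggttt
The TATAAA of Inhba begins 91 bases before the start, and the SMAD box letters of Ltbp2 begin 205 and 176 bases before it. Both strands were searched for 4 sets of letters. Of all 32851 windows of this length, 42.2% hold CAGAC, 12.4% TATAAA, 12.6% the TEAD letters GGAATG and 6.75% the AP-1 letters TGANTCA, so a match to CAGAC is common. The Inhba window has no CAGAC, and neither window has GGAATG or TGANTCA. Of the members with a window that did not rise in fibroblasts, Ltbp1, Tgfb2 and Tgfbr2 also have CAGAC on either strand. Tgfb2 has TATAAA as well, and Tgfb1 has none of the 4 sets of letters. A match describes letters in a window and is not a measured site.

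The saline library held 37570380 UMIs over 5455 barcodes and the bleomycin library 61537182 over 4473, of which 5195 and 4308 were kept as cells, with medians of 6300 and 12271 UMIs. The libraries had 33 barcodes in common. Clusters were built without Inhba, Ltbp2 and Ctgf, the 3 members that had been among the variable genes, and each class name means cells resembling that type by markers. Fibroblasts made up 3573 saline and 3514 bleomycin cells. Other classes with at least 100 cells in each library were alveolar macrophages (637 and 332), endothelial cells (147 and 184) and mural cells (smooth muscle cells and pericytes, 152 and 150), and 468 epithelial cells came from saline. Lepr, which drives the sort, stood at 44.2 UMIs per 1000000 UMIs of a class and library (UPM) in saline fibroblasts and 3.51 UPM in bleomycin fibroblasts, beside 3.11 UPM in saline epithelial cells.

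In fibroblasts, the activin subunit gene Inhba, the matrix gene Ltbp2 of the LTBP family and the target gene Ctgf rose after bleomycin, and the ligand Tgfb3 fell. The verbs rose and fell are kept for genes with a ratio of 2-fold or more whose higher library has at least 50 UMIs and 20 UPM. All 9 members reached the required level, and 3 rose, 1 fell and 5 did neither. Over all 5886 genes that reached it, 6.17% rose and 9.68% fell. The median log2 ratio of bleomycin over saline was 0.55 for the members and -0.01 for all these genes. The members were chosen with earlier results of these data known, so the comparison with all genes is a description only. Over all cells together the same 3 genes rose and Tgfb3 fell, from 109 to 52.5 UPM, beside 4.99% risen and 9.54% fallen of 6050 genes. That split, 302 and 577, was 401 and 449 under trimmed-mean (TMM) scaling, where Tgfb3 over all cells no longer passed the rule, as also when cells were thinned to 2000 UMIs. The fibroblasts of the 2 libraries sat almost wholly in different clusters, 0, 1, 2, 3, 7 and 17 in saline and 4, 16, 20, 21, 23, 24 and 25 in bleomycin, with cluster 7 the only one with at least 100 cells in each.

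**Figure D1:**
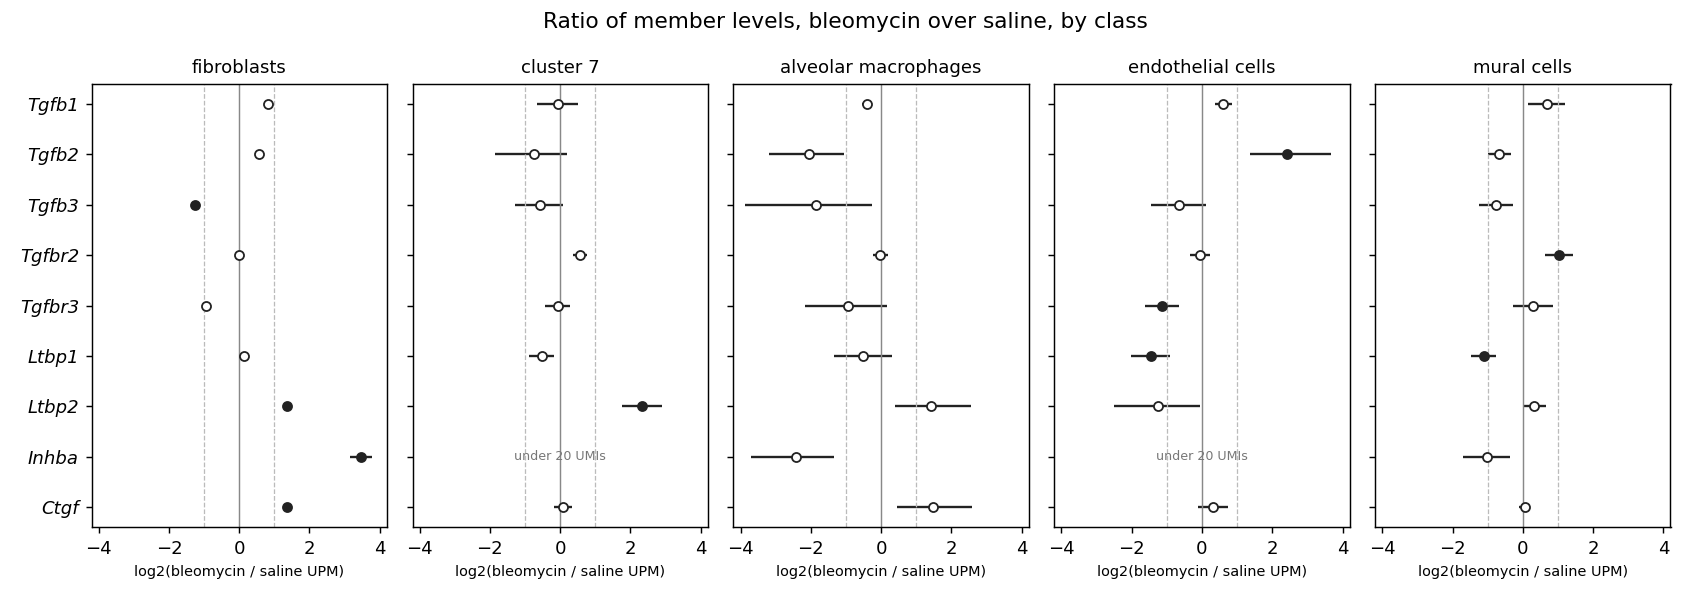
Log2 ratio of bleomycin over saline UPM (x axis) for the 9 members (y axis) in 5 groups of cells, with 95% intervals for counting error; filled points passed the size rule and broken lines mark 2-fold. In fibroblasts Inhba lies farthest to the right at 10.98-fold, while in alveolar macrophages its point lies on the other side of zero.

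Inhba was at 3.67 UPM in saline fibroblasts (95 UMIs) and at 40.3 UPM in bleomycin fibroblasts (2102 UMIs). This is a 10.98-fold rise, with an interval of 8.94 to 13.6. Because the saline level is low, the size of the ratio depends on the processing. With 1 UPM added to both levels the log2 ratio was 3.14, and over 15 alternatives it ran from 2.39 to 3.42. Saline fibroblast clusters all lay low, from 1.01 UPM in cluster 7 to 8.76 UPM in cluster 0. Bleomycin clusters spread far more widely, from 1 UMI (1.19 UPM) in cluster 7 to 147 UPM in cluster 21, and 7 of the 8 lay above every saline cluster. The highest of them, cluster 21, was led among fibroblasts by the matrix protein gene Thbs4, Igfbp2 and the tendon transcription factor gene Scx.

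Tgfb3, which encodes the third TGF-beta isoform, stood at 135 UPM in saline fibroblasts (3486 UMIs) and at 56.3 UPM in bleomycin fibroblasts (2932 UMIs). It fell 2.40-fold, with an interval of 2.28 to 2.52. Within saline it already ranged from 38.7 UPM in cluster 7 to 263 UPM in cluster 0, which was led by the adventitial marker Pi16 and by Adh7. In bleomycin it ranged from 25.4 UPM in cluster 25 to 141 UPM in cluster 21, so the clusters of the 2 libraries overlapped.

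Tgfb1, the isoform most often tied to fibrosis, was at 52.5 UPM in saline fibroblasts (1358 UMIs) and 92.7 UPM in bleomycin fibroblasts (4829 UMIs). The ratio of 1.76 (interval 1.66 to 1.88) was under the size rule. The level in bleomycin was uneven. Cluster 21 held 228 UPM and the cycling cluster 16 held 136 UPM, while the other 6 bleomycin clusters lay between 35.6 and 87.7 UPM and the saline clusters between 36.9 and 74.8 UPM. Tgfb2, which encodes the second isoform, was at 29.4 and 43.5 UPM in saline and bleomycin fibroblasts, a ratio of 1.48 (1.36 to 1.61) that was also under the rule. Its clusters ran from 19.9 to 36.9 UPM in saline and from 11.9 to 82.5 UPM in bleomycin, again with cluster 21 on top.

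Ltbp2 encodes a matrix protein of the LTBP family that binds fibrillin microfibrils and, unlike its relatives, does not bind latent TGF-beta. It was at 67.8 UPM in saline fibroblasts (1754 UMIs) and at 173 UPM in bleomycin fibroblasts (9016 UMIs), a 2.55-fold rise (2.42 to 2.69). Of all 9 members it varied most between saline clusters, from 12.1 UPM in cluster 7 to 184 UPM in cluster 17, a 15.2-fold range. Cluster 17 was led by the chemokine genes Cxcl5 and Cxcl9. In bleomycin it ran from 36.0 UPM in cluster 25 to 451 UPM in cluster 21. Ltbp1, the carrier that anchors latent TGF-beta in the matrix, was at 135 and 149 UPM in saline and bleomycin fibroblasts. That ratio of 1.10 (1.06 to 1.15) was among the smallest of the members, and the saline clusters ranged only from 112 to 165 UPM. In bleomycin Ltbp1 was highest in cluster 25, at 215 UPM, and lowest in cluster 7, at 90.2 UPM.

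Tgfbr2, the type II receptor gene that starts the signal, was at 279 UPM in saline fibroblasts (7217 UMIs) and 280.5 UPM in bleomycin fibroblasts (14614 UMIs), a ratio of 1.005 (0.977 to 1.03). Beneath the even sum the bleomycin clusters parted. The alveolar fibroblast cluster 24 held 401 UPM and the adventitial cluster 20 held 394 UPM, while the 4 fibrotic clusters lay from 183 to 223 UPM. Tgfbr3 encodes betaglycan, the co-receptor that presents ligand, above all the second isoform, to the type II receptor. It was at 82.8 UPM in saline fibroblasts (2140 UMIs) and 42.8 UPM in bleomycin fibroblasts (2232 UMIs). The saline level was 1.93 times the bleomycin level (1.82 to 2.05), just short of the rule. Cluster 21, with the most UPM of the 3 TGF-beta ligands among bleomycin fibroblasts, had the least Tgfbr3, at 13.4 UPM, and cluster 7 the most, at 91.4 UPM.

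Ctgf encodes connective tissue growth factor, a matrix-associated protein and a well-known target of TGF-beta and of YAP. It was at 131 UPM in saline fibroblasts (3400 UMIs) and 338 UPM in bleomycin fibroblasts (17625 UMIs), a 2.57-fold rise (2.48 to 2.67). All 8 bleomycin clusters, from 172 to 670 UPM, lay above all 6 saline clusters, from 101 to 161 UPM. The lowest bleomycin value was in cluster 7 and the highest saline value was in the same cluster, and their intervals overlapped (145 to 202 and 150 to 173 UPM).

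**Figure D2:**
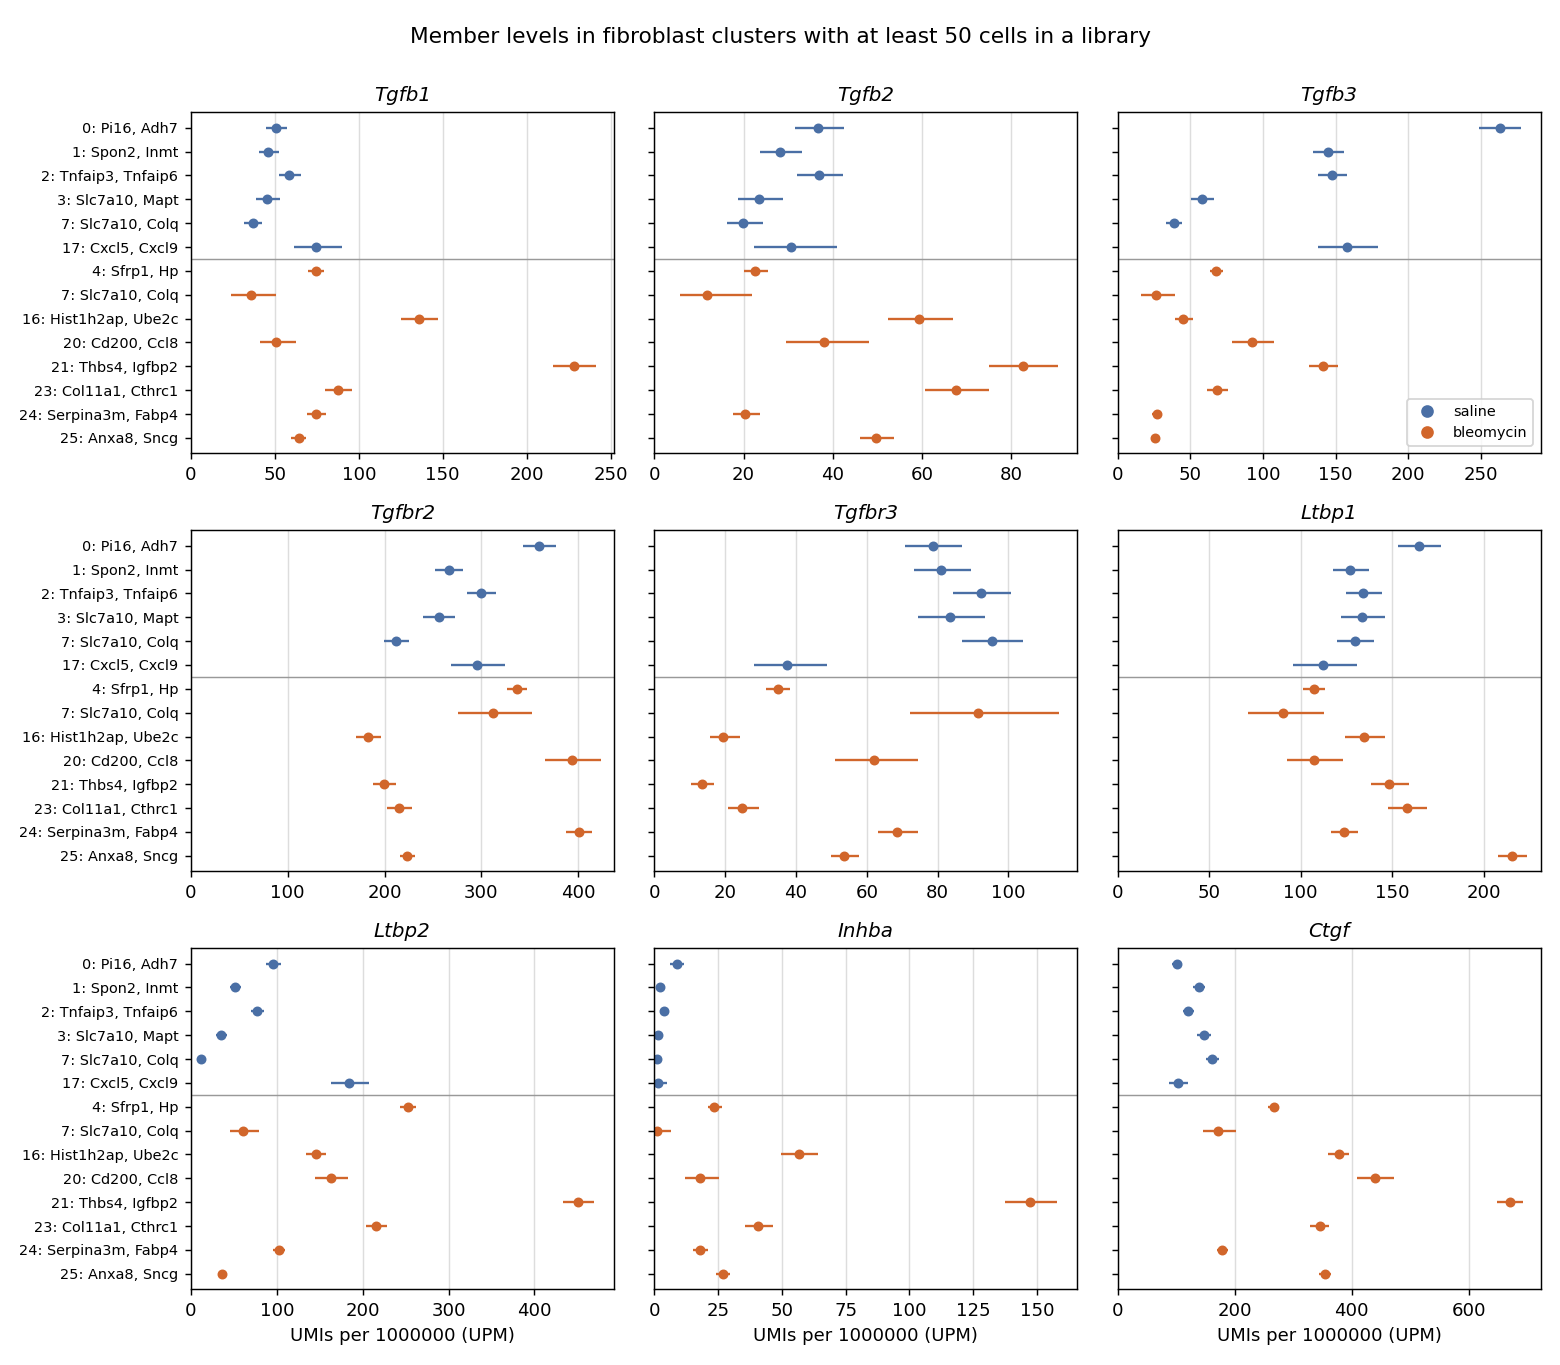
Level of each member (x axis, UPM) in the fibroblast clusters with at least 50 cells in a library (y axis, cluster number and leading genes), saline in blue and bleomycin in orange, with exact Poisson 95% intervals. Cluster 21 in bleomycin is the highest point for Tgfb1, Tgfb2, Ltbp2, Inhba and Ctgf and the lowest for Tgfbr3, and Tgfb3 is highest in cluster 0 in saline.

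Among the bleomycin fibroblasts the members separated cluster 21 from cluster 25, both fibrotic by their markers, the second led by Anxa8, Sncg and the mesothelial marker gene Msln. Clusters were drawn from other genes of the same cells, so these differences are a description. Ltbp2 was at 451 and 36.0 UPM in clusters 21 and 25, a 12.5-fold ratio (11.4 to 13.9). Tgfb3 was 5.55 times (4.88 to 6.32), Inhba 5.50 times (4.85 to 6.25) and Tgfb1 3.56 times (3.26 to 3.88) as high in cluster 21. Ctgf differed less, at 670 and 354 UPM, a ratio of 1.90 (1.81 to 1.98). The receptor Tgfbr3 and the carrier Ltbp1 went the other way, 4.01 times (3.15 to 5.18) and 1.45 times (1.34 to 1.57) as high in cluster 25. Cluster 23, led by Col11a1, Cthrc1 and Postn, lay between the other two for Inhba (40.8 UPM) and Ltbp2 (216 UPM), while its Ctgf, at 345 UPM, was close to that of cluster 25.

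The 2 alveolar fibroblast clusters made up almost wholly of bleomycin cells also differed. Cluster 4, led by Sfrp1 and Hp, had 253 UPM of Ltbp2 and 67.8 UPM of Tgfb3. Cluster 24, led by Serpina3m and Fabp4, had 102 and 26.9 UPM of the same genes, lower by 2.47-fold (2.30 to 2.67) and 2.53-fold (2.18 to 2.93). Tgfbr3 ran against this, at 34.8 UPM in cluster 4 and 68.7 UPM in cluster 24. Tgfb1 did not separate them, with 74.3 and 74.6 UPM.

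Pi16 was a leading gene in cluster 0 (787 saline cells) and cluster 20 (187 bleomycin cells). Tgfb3 was at 263 UPM in cluster 0 and 92.6 UPM in cluster 20. Ctgf had the opposite order, at 101 and 440 UPM. For Tgfb1 the values were alike, at 50.7 and 50.8 UPM, and for Tgfb2 36.7 and 37.9 UPM. The clusters hold 1 library each, so the library and the kind of cell cannot be told apart here.

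Cluster 7, led by the amino acid transporter gene Slc7a10 and Colq, held cells of both libraries (750 saline and 113 bleomycin cells, medians of 6659.5 and 7370 UMIs). These cells were grouped by likeness over the variable genes, which by itself favours few differences between the libraries within the cluster. There 7 members reached the required level, of which 1 rose, none fell and 6 did neither, against 1.05% risen and 4.24% fallen over all 4083 genes. The one that rose was Ltbp2, at 12.1 UPM in saline (60 UMIs) and 60.5 UPM in bleomycin (51 UMIs), 5.01-fold (3.38 to 7.40). It missed the rule's minimum of UMIs when each cell was thinned to 2000 UMIs. Ctgf, at 161 and 172 UPM, and Tgfb1, at 36.9 and 35.6 UPM, had intervals that overlapped between the libraries. Inhba had 5 UMIs in saline and 1 in bleomycin.

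In alveolar fibroblasts as a class (2762 saline cells, mostly in clusters 1, 2, 3, 7 and 17, and 1762 bleomycin cells, mostly in clusters 4 and 24), Ltbp2 and Inhba rose and Tgfb3 fell. That is 2 of 9 members risen and 1 fallen, against 4.39% and 6.05% of all 5805 genes at the required level. Ltbp2 was at 59.6 and 184 UPM, 3.09-fold (2.90 to 3.29). Inhba was at 2.26 and 20.3 UPM, barely over the minimum level, and lost the call under 7 of 13 alternatives. A single cell held 52 of its 440 bleomycin UMIs (11.8%). Tgfb3, at 106 and 49.98 UPM, lost it under 6 of 13, with log2 ratios from -1.27 to -0.30. Ctgf, at 138 and 227 UPM, did not reach the rule in this class, at 1.65-fold (1.57 to 1.72).

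Outside fibroblasts, Ctgf was highest in smooth muscle cells, at 830.5 UPM in saline and 833 UPM in bleomycin, above every fibroblast cluster. Tgfb1 was highest in bleomycin lymphatic endothelial cells, at 402 UPM, and stood at 375 and 286 UPM in saline and bleomycin alveolar macrophages. Tgfb2 was highest in smooth muscle cells, at 212 UPM in saline and 132 UPM in bleomycin.

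Smooth muscle cells of saline also had the most Ltbp1, at 273 UPM, and 81.4 UPM of Inhba, second to bleomycin cluster 21. Bleomycin pericytes held 385 UPM of Ltbp2, second to the same cluster among groups with at least 50 cells in a library. Saline pericytes, with fewer than 50 cells, were left out of this order. Saline mural cells held 118 Ltbp2 UMIs, only 4 of them in smooth muscle cells, so high Ltbp2 in pericytes was not particular to bleomycin. The 52 bleomycin pericytes had 0 Inhba UMIs, where 3 counts would be 6.49 UPM and the interval reaches 7.98 UPM. Tgfb3 and Tgfbr3 were highest in cluster 12 of saline, at 267.5 and 204 UPM. This cluster, led by Hhip and Fgf18, met the marker rule for fibroblasts and for smooth muscle cells and stayed unnamed. Epithelial cells of saline were low for most members, from 0.622 UPM of Inhba to 46.3 UPM of Tgfbr2. When the 27 cluster levels of a gene are put in order, between 20 of 26 (Ctgf) and 25 of 26 (Tgfb2, Tgfb3 and Tgfbr3) neighbouring pairs have overlapping intervals, so the order is firm only over larger steps.

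**Figure D3:**
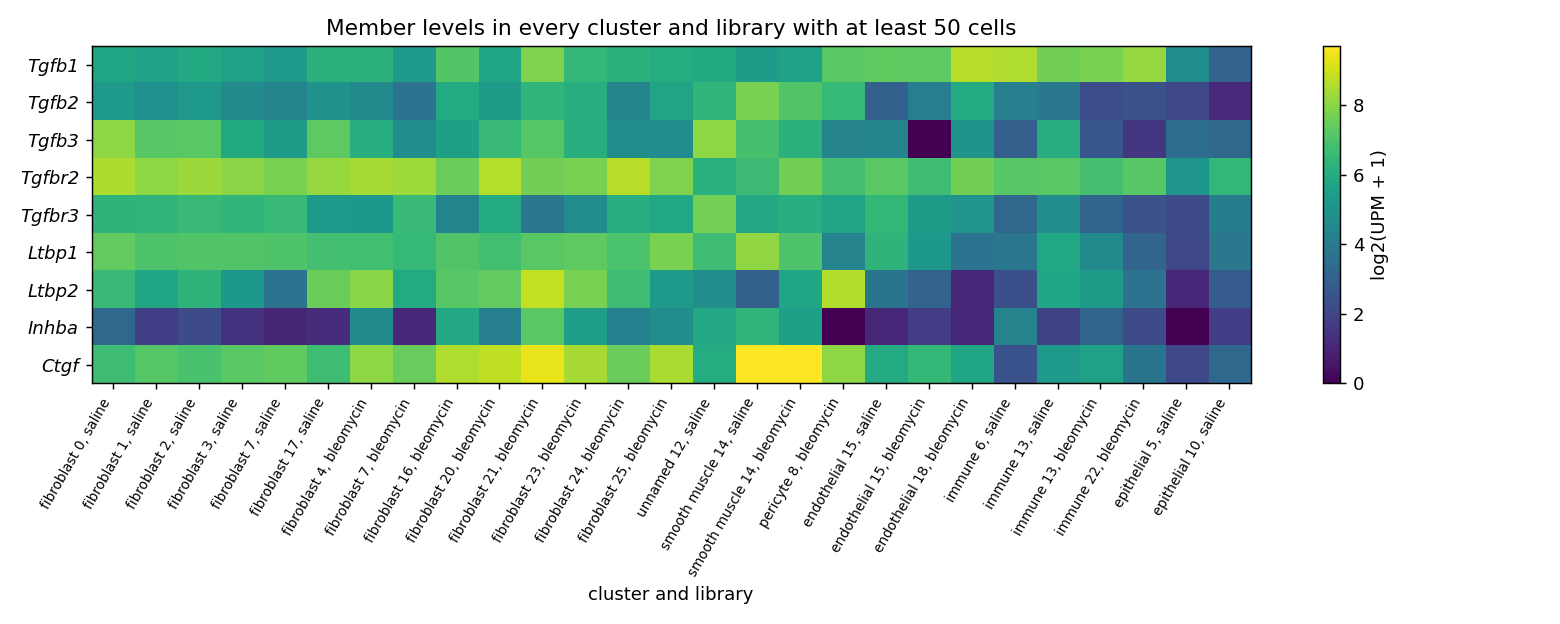
Level of each member (rows, colour scale of log2(UPM + 1)) in every cluster and library with at least 50 cells (columns). The brightest cells are Ctgf in smooth muscle, and in the row of Inhba the brightest is bleomycin fibroblast cluster 21 at 147 UPM.

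Fewer members reached the required level in the smaller classes. In endothelial cells 6 did, of which 1 rose and 2 fell, beside 9.91% and 10.2% of all 4845 genes. Tgfb2 rose from 6.998 UPM (8 UMIs) to 37.4 UPM (70 UMIs), 5.34-fold (2.57 to 12.9), and 56 of the 70 UMIs came from the lymphatic cells, which were 70 bleomycin and 19 saline cells. Ltbp1 fell from 67.4 to 24.6 UPM, 2.74-fold (1.88 to 4.04), and Tgfbr3 fell from 77.9 to 35.3 UPM, 2.21-fold (1.59 to 3.08). All 3 calls were lost when cells were thinned to 2000 UMIs. For Tgfb2 the log2 ratio was at least 1.02 under all 13 alternatives, so its call was lost to the rule's minimum level and not to its fold. In the general capillary endothelial cells alone (102 and 96 cells) Ltbp1 was at 78.3 and 35.0 UPM and Tgfbr3 at 86.4 and 38.7 UPM.

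In mural cells 8 members reached the level, of which 1 rose and 1 fell, beside 3.87% and 3.35% of all 3437 genes. Tgfbr2 rose from 83.0 UPM (71 UMIs) to 168 UPM (213 UMIs), 2.03-fold (1.54 to 2.69), a call lost under 3 of 13 alternatives. Ltbp1 fell from 191 to 87.7 UPM, 2.17-fold (1.70 to 2.79), a call lost when cells were thinned to 2000 UMIs. In alveolar macrophages only Tgfb1 and Tgfbr2 reached the level and neither rose or fell, beside 2.98% and 5.37% of all 5136 genes. That split, 153 risen and 276 fallen, was 189 and 214 under TMM scaling. Tgfbr2 was alike in the macrophages of both libraries, at 145 and 143 UPM.

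Shares of cells with a UMI were compared after thinning every cell to 2000 UMIs, since the median fibroblast had 6835 UMIs in saline and 13599 in bleomycin. An Ltbp2 UMI was found in 9.15% (8.23 to 10.1) of thinned saline fibroblasts and 23.5% (22.1 to 24.9) of bleomycin ones, against 19.5% and 58.0% without thinning. For Ctgf the thinned shares were 18.7% (17.5 to 20.04) and 32.7% (31.2 to 34.3), against 40.9% and 66.8%. Both genes were thus found in a larger share of bleomycin cells at equal depth. Inhba was found in 0.868% (0.590 to 1.23) and 5.46% (4.74 to 6.27), against 2.32% and 24.8%. Tgfb3 was found in 20.8% (19.4 to 22.1) and 9.96% (8.99 to 10.998), while the unthinned 46.0% and 41.7% lay closer together.

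In saline epithelial cells (median 5854.5 UMIs), taken as a background level for that library, the thinned shares were 0.641% for Ltbp2, 0.641% for Ctgf, 0.214% for Inhba and 1.71% for Tgfb3. Epithelial cells came from saline alone, so the immune cells of bleomycin (median 6915 UMIs) stand beside the bleomycin shares, at 2.89% for Ltbp2, 2.17% for Ctgf, 1.20% for Inhba and 0% for Tgfb3 (0 to 0.885). The saline fibroblast share of Inhba lay under the 2.21% (1.27 to 3.57) of saline immune cells (median 4213 UMIs). Alveolar macrophages held 53 of the 55 Inhba UMIs of those immune cells. The interval of the saline fibroblast share overlaps that of epithelial cells (0.00541 to 1.18), so this share was not told apart from background. In UPM, without thinning, the intervals did not overlap, at 3.67 (2.97 to 4.49) in saline fibroblasts and 0.622 (0.0753 to 2.25) in epithelial cells. At least 1 UMI of the 4 ligand genes Tgfb1, Tgfb2, Tgfb3 and Inhba was found in 32.2% (30.7 to 33.7) of thinned saline fibroblasts and 31.1% (29.6 to 32.7) of bleomycin ones. UMIs of 2 or more of the 4 were found in 3.53% and 5.44%. In the fibrotic fibroblasts of bleomycin these shares were 39.0% (36.6 to 41.5) and 8.37%.

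The genes most like each member were sought over the 27 cluster levels by Pearson r of log2(UPM + 1), among 8182 genes, as a description only, since clusters of 1 library share depth and handling. The 27 levels take in fibroblast, mural, endothelial, immune and epithelial clusters together. Each r therefore also holds differences between these types, and likeness among fibroblast clusters alone was not examined. Ltbp2 was most like the collagen genes Col1a1 (r = 0.86), Col1a2 (0.86) and Col5a2 (0.86). Inhba was most like the growth factor gene Pdgfc (0.85), the matrix gene Thbs2 (0.82) and Sfrp2 (0.82). Ctgf was most like Slc25a4 (0.91), Fstl1 (0.90) and the mesenchymal transcription factor gene Prrx1 (0.89). Tgfb2 was most like the integrin gene Itgav (0.88), followed by Smtn (0.87) and Sec23a (0.86).

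For Tgfb1 the nearest were Fxyd5 (0.88), Cotl1 (0.87) and Rhog (0.86), and for Tgfb3 Epdr1, Podxl2 and Col27a1 (0.87 each). Ltbp1 followed the prostacyclin synthase gene Ptgis (0.97), with Ctdsp2 (0.93) and Ptprs (0.92) next. For the receptors they were Rrs1 (0.92), Tspan5 (0.87) and Dennd4a (0.83) with Tgfbr2, and Trip10 (0.93), Tns2 (0.91) and Evi5 (0.90) with Tgfbr3. No member was among the 3 nearest genes of another.

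Of 50 other genes of the pathway on a list ordered by role, 33 reached the required level in fibroblasts. Of these 6 rose and 8 fell, beside 6.17% and 9.68% of all 5886 genes. The other 19 of the 33 did neither, and the median log2 ratio of the 33 was 0.03. The list was made with earlier results of these data known, so its counts by role are a description too. None of the 5 further ligand genes reached the required level. Among carriers, Ltbp4, the LTBP tied to elastic fibres, fell from 795 to 138 UPM, 5.75-fold (5.60 to 5.91), and Lrrc32, which holds latent TGF-beta at the cell surface, fell from 66.1 to 21.1 UPM, 3.14-fold (2.91 to 3.39). The fibrillin gene Fbn1, at 243 and 402 UPM, and Ltbp3, at 68.8 and 71.3 UPM, did neither. None of 4 activators at the level rose or fell, with Itgav at 36.5 and 38.7 UPM and Thbs1 at 835 and 968 UPM.

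Of 4 receptors, the type I receptor gene Acvrl1 fell from 89.1 to 34.2 UPM, 2.61-fold (2.45 to 2.77). Tgfbr1, the type I partner of Tgfbr2, was at 40.0 and 33.0 UPM. Among the SMAD transducers Smad3 fell from 38.3 to 16.6 UPM, 2.30-fold (2.1 to 2.53), while Smad2 was at 19.6 and 20.05 UPM and Smad4 at 27.7 and 30.5 UPM. Of 6 feedback inhibitors, the decoy receptor gene Bambi fell from 80.6 to 26.7 UPM, 3.02-fold (2.82 to 3.24). The inhibitory Smad7, at 89.99 and 54.6 UPM, and Pmepa1, at 294 and 298 UPM, did neither.

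Of the 4 antagonists that act outside the cell, 1 rose and 1 fell. Fst, which encodes the activin-binding follistatin, rose from 5.26 to 373 UPM, 71.0-fold (59.97 to 84.6). The proteoglycan gene Dcn fell from 1429 to 607 UPM, 2.35-fold (2.32 to 2.39). Of 8 target genes at the level 5 rose, beside 6.17% of all 5886 genes. The 5 risen targets were Postn (6.15 to 440.0 UPM), the contractile genes Acta2 (124 to 1427 UPM) and Tagln (232 to 1193 UPM), Wisp1 (13.4 to 85.9 UPM), a relative of Ctgf, and Col1a1 (1461 to 5461 UPM). Fst, Postn, Col1a1, Dcn and Acta2 were among the markers used to name clusters, though the sums are over all fibroblasts.

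Of the targets, Junb (2868 to 920 UPM) and Cyr61 (1822 to 862 UPM), a further relative of Ctgf, fell. Junb and Cyr61 respond quickly to stimuli. The summed level of 12 immediate early genes was 18398 UPM in saline fibroblasts and 5716 UPM in bleomycin fibroblasts. Of the 12, 11 fell and none rose, beside 9.68% fallen and 6.17% risen of all 5886 genes. The part of the immediate early genes in the lower Junb and Cyr61 was not tested. Markers of smooth muscle were summed as well. The summed level of 6 smooth muscle genes was 80.2 UPM in saline fibroblasts and 589 UPM in bleomycin fibroblasts, against 10391 and 7830 UPM in smooth muscle cells. Only 2 of the 6 reached the required level in fibroblasts, and these 2 rose. None of the 6 was at 0 in fibroblasts, and their part in the rise of Acta2, Tagln and Ctgf was not tested.

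**Figure D4:**
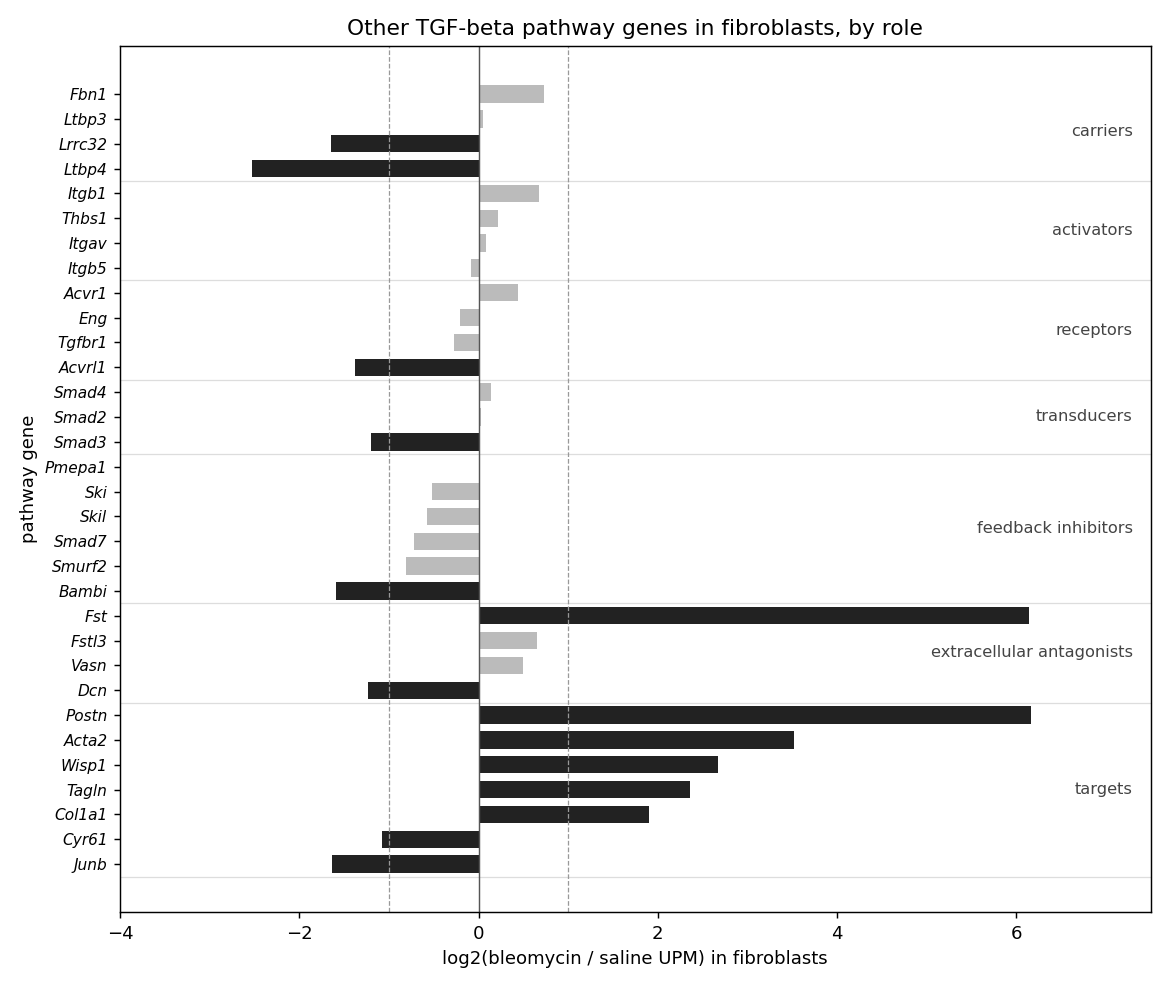
Log2 ratio of bleomycin over saline UPM in fibroblasts (x axis) for 32 of the 33 other pathway genes at the required level, grouped by role (y axis), with black bars past the size rule and broken lines at 2-fold. The longest bars are Fst and Postn on the right and Ltbp4 on the left, and 5 of the 6 risen genes are targets.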

How the data were processed

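Droplet libraries (10x Genomics 3' v2) of sorted cells were made from 1 saline and 1 bleomycin sample. The deposited files are raw UMI counts for each gene and barcode, made by the authors with Cell Ranger 2.1.1 on mm10, per the submitters' processing notes. Not given in the sources used here are the annotation release and how cells were called. A UMI stands for 1 captured 3' end, so levels were not divided by gene length.

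A barcode needed 500 genes, 1000 UMIs and no more than 10% mitochondrial UMIs, which left out 23 saline and 5 bleomycin barcodes. Doublets were scored with Scrublet (scanpy 1.11.5). Its own threshold marked 34 and 5 barcodes, so the 237 and 160 with the highest scores, at an expected 0.8% per 1000 barcodes, were left out. Variable genes (1997 after the members were removed), 30 principal components and 15 neighbours were used for Leiden clustering (resolution 1, 26 clusters), without integrating the libraries. Clusters were named from marker lists, taking the lineage whose markers were found most often, unless another came within 90% of it. A name also required 3 of its markers, each seen in 25% of cells.

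UMIs were summed per class and library and given per 1000000 (UPM). Intervals are exact Poisson for levels, conditional binomial for ratios and Clopper-Pearson for shares, and cover counting error only. Log2 ratios used a prior of 1 UPM where a median or an alternative is given, and folds had none. The ratio rules were checked on simulated counts that held counting error only. The genes changed in it lay well above the minimum level, in sums over fibroblasts, and were changed by more than 2-fold. That check therefore does not cover smaller classes, low levels or ratios close to 2-fold, nor spread between mice, libraries or cells. All members were named in every cluster with at least 50 cells. Of the other pathway genes, those past the size rule in fibroblasts and up to 4 more per role were named, and 1 such gene is not reported here. The members and all lists were chosen with earlier results of these data known, and the immediate early and smooth muscle lists after the levels were seen. Positions are from GENCODE vM21, which holds 28339 of the 28692 identifiers (98.8%). Alternatives covered scaling, thinning, filters, doublets, clustering and the size rule.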

Additional observations from a re-analysis of the deposited data

Results flagged for a closer look

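For 2 members the ratio was at least 2-fold, with at least 50 UMIs in the higher library, in one direction in 1 class of cells and in the other direction in another class. Tgfb2 was 5.34-fold higher after bleomycin in endothelial cells, at 8 UMIs in saline and 70 in bleomycin, of which 56 came from lymphatic cells. General capillary endothelial cells alone held 6 UMIs (6.91 UPM) in saline and 14 UMIs (16.9 UPM) in bleomycin. In alveolar macrophages Tgfb2 was 4.10-fold lower, at 51 UMIs (17.6 UPM) in saline and 10 UMIs (4.28 UPM) in bleomycin. The macrophage level in saline was under the 20 UPM of the size rule.

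Inhba was 10.98-fold higher after bleomycin in fibroblasts and 5.33-fold lower in alveolar macrophages, at 53 UMIs (18.3 UPM) in saline and 8 UMIs (3.42 UPM) in bleomycin. In the saline macrophages these UMIs came from 22 of 637 cells, and 1 cell held 9 of them. Neither macrophage gene reached the level of the rule, and of 13 alternatives both passed it only when the 50 genes with the most UMIs were left out of the total. The difference between classes was not tested for either gene.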

How the results depend on the processing

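No paired analysis was possible because each group holds 1 library and no result comes from a test. In fibroblasts the member counts of 3 risen and 1 fallen were the same under every change of scaling, thinning, barcode filter, doublet removal and clustering that was run, and moved only with the fold asked for. At 3-fold 1 member rose and 0 fell, beside 3.18% risen and 4.25% fallen of all 5886 genes, and at 1.5-fold 4 rose and 2 fell, beside 14.1% and 18.3%. The 8 fallen pathway genes became 4 at 3-fold. The 6 risen pathway genes became 9 at 1.5-fold or with no minimum level.

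Over 54 pairs of a member and a class, each with 13 to 15 alternatives, 45 kept the sign of the ratio throughout. Of 16 pairs past the size rule, 16 kept the sign and 8 also kept the call. These 8 were Ltbp2, Inhba, Ctgf and Tgfb3 in all cells, fibroblasts or alveolar fibroblasts, classes that share cells, so they are not separate results. Every call in endothelial and mural cells was lost under some alternative. TMM scaling raised log2 ratios by 0.14 over all cells and by 0.09 in fibroblasts, and over all cells the risen share of the called genes went from 34.4% to 47.2%. Leaving the unnamed cluster 12 in with the fibroblasts, or the cycling cells out, changed no count, and both were chosen after the data were seen. Cluster 7 was recomputed under scaling, thinning and prior only. Without replicate libraries no spread between mice can be given, and members under about 50 UMIs in a class, such as Inhba outside fibroblasts, had wide intervals.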
